A study of Mus musculus with 22 samples.

Results

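The genes described here are 9 lysosomal genes of the mouse blastocyst: the enzymes Neu1, Ctsa, Ctsb, Ctsd, Ctsl, Hexa and Glb1 and the membrane proteins Lamp1 and Lamp2. They were taken by their symbol in the array annotation, with the requirement of a detection p-value under 0.05 on at least 3 of 22 arrays. Of their 15 probes, 11 met it, for 8 of the 9 genes, out of 12992 passing probes and 9345 genes in all. No probe lay near that limit: the passing probes were detected on 20 to 22 arrays, and the 4 probes of Ctsa, which all failed, on 1, 1, 0 and 0. Neu1 was singled out because it was lower in one culture medium, HTF, and the question was whether the others followed it. The Neu1 values in HTF are therefore a description and carry no test.

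The arrays carried RNA of blastocysts of embryonic day 3.5, from the B6 or the CD1 strain. The embryos had developed in vivo, or in culture in KSOM, HTF or ISM1 medium. These made 8 groups: B6 in vivo, B6 KSOM, B6 HTF, B6 ISM1, CD1 in vivo, CD1 HTF and CD1 ISM1, with 3 arrays each that the submitters call biological replicates, and CD1 KSOM with 1 array. Values are log2 intensities after background correction and quantile normalization. A level is comparable between arrays for 1 probe and not between probes, and each array reads whole embryos, in which fewer cells of a type and less RNA per cell cannot be told apart. The median raw intensity of an array ran from 90.6 to 154, lowest in the CD1 in vivo group, whose median intensities averaged 104 ± 11.3 (SD, n = 3). All 8 trophectoderm marker genes examined passed detection, as did 6 of 7 of the inner cell mass and 6 of 7 of the primitive endoderm. Of genes listed as markers of other tissues, 4 of 6 for reproductive tract epithelium, 1 of 5 for blood and immune cells and 0 of 5 for cumulus cells passed. Krt7 and Foxj1 of the tract list were detected on all 22 arrays, cultured embryos included. They do not single out embryos that developed in the tract.

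Lysosomes are acidic organelles in which enzymes break down proteins, glycolipids and sugar chains delivered by endocytosis and autophagy. Most of the soluble enzymes are tagged with mannose 6-phosphate and carried to the lysosome by receptors in the Golgi, a proton pump keeps the interior acidic, and heavily glycosylated membrane proteins such as Lamp1 and Lamp2 line the inner face. In the blastocyst, trophectoderm cells take up protein from their surroundings and digest it in these organelles. Many lysosomal genes carry in their promoter an E-box that transcription factors of the Tfeb and Tfe3 family bind.

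The promoters of the 9 genes were read for that motif. It is known from lysosomal genes, so a high share among genes chosen as lysosomal is no independent finding. The windows, from RefSeq on build GRCm38.p6, run from 250 bases before to 50 bases after an annotated start, and 8 of the 9 genes had one. CACGTG, which reads the same on both strands, was present for 5 of 8 genes (62.5%), namely Ctsa, Ctsd, Ctsl, Lamp1 and Glb1, against 8.09% of the 27025 genes in the table. The longer form TCACGTG or CACGTGA, which contains the shorter one, was present for 4 of 8 (50%) against 4.29%. Of 73 other lysosomal genes with a window, 20 (27.4%) held CACGTG. Neu1, Lamp2 and Hexa had no CACGTG in their windows. The stretches below are the 120 bases before the start in the direction of the gene, shown because they set Neu1 beside members that carry the motif, with CACGTG in capitals. Each ends just before the annotated start of its gene.
Neu1: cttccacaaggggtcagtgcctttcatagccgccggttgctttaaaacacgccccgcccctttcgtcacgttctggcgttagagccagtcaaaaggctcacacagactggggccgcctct
Glb1: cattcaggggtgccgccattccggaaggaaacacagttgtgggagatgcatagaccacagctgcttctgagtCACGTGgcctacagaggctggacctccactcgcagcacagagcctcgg
Ctsd: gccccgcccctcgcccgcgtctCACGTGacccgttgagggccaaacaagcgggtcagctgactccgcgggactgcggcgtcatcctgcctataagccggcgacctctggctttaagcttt
Lamp1: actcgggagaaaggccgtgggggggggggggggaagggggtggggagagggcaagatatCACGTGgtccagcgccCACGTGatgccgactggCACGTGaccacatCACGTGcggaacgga
The Neu1 stretch is chr17:34931133-34931252 on the plus strand and the Glb1 stretch chr9:114400958-114401077 on the plus strand. The Ctsd stretch is chr7:142387828-142387947 on the minus strand and the Lamp1 stretch chr8:13159041-13159160 on the plus strand. Lamp1 held 4 copies, at -61, -45, -28 and -15 from the start. Glb1 held 1, at -48, and Ctsa, which had 2 windows, held 2 in the second of them, at -12 and 5 from its start. Ctsd held 2, at -245 and -98, of which the first lies outside the stretch shown, and Ctsl held 1 at -236. A match is a run of letters in a window and no measure of binding.

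Neu1 encodes the lysosomal sialidase, which removes terminal sialic acids from glycoproteins and glycolipids. Its probe, ILMN_2708906, was detected on all 22 arrays. The 3 B6 in vivo arrays read 12.17, 12.13 and 12.43 and the 3 B6 HTF arrays 11.10, 11.06 and 10.86. The CD1 in vivo arrays read 11.83, 11.70 and 11.58 and the CD1 HTF arrays 10.60, 11.05 and 10.59. In both strains every HTF array lay below every in vivo array, which 5.22% of all genes showed in B6 and 4.32% in CD1. The difference, averaged over the strains, was -1.09 on the log2 scale (SE 0.20), or 2.13-fold lower in HTF, with -1.23 in B6 and -0.96 in CD1.

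The remaining media are given by strain. In B6, the KSOM arrays read 12.16, 11.54 and 12.55 and the ISM1 arrays 12.11, 12.41 and 11.58, and both groups overlapped the in vivo arrays. In CD1, the ISM1 arrays read 10.73, 11.24 and 11.08, all below the in vivo arrays, as for 2.54% of all genes, and the single KSOM array read 11.10. ISM1 against in vivo gave -0.45 over both strains (SE 0.20), with -0.21 in B6 and -0.68 in CD1, and KSOM against in vivo gave -0.16 in B6 (SE 0.28). These values rest on the in vivo arrays on which Neu1 was chosen, so they too are a description with no test. Over the 8 groups, the means fell in the order B6 in vivo (12.24), B6 KSOM (12.08), B6 ISM1 (12.03), CD1 in vivo (11.70), CD1 KSOM (11.10), CD1 ISM1 (11.02), B6 HTF (11.01) and CD1 HTF (10.75). The median SD within a group was 0.26. The first 3 means in that order differed by less than this SD, as did CD1 KSOM, CD1 ISM1 and B6 HTF. CD1 blastocysts in ISM1 thus read at the level of B6 in HTF, and in CD1 the HTF and ISM1 arrays overlapped, whereas in B6 all HTF arrays lay below all ISM1 arrays (5.2% of genes) and all KSOM arrays.

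**Figure D1:**
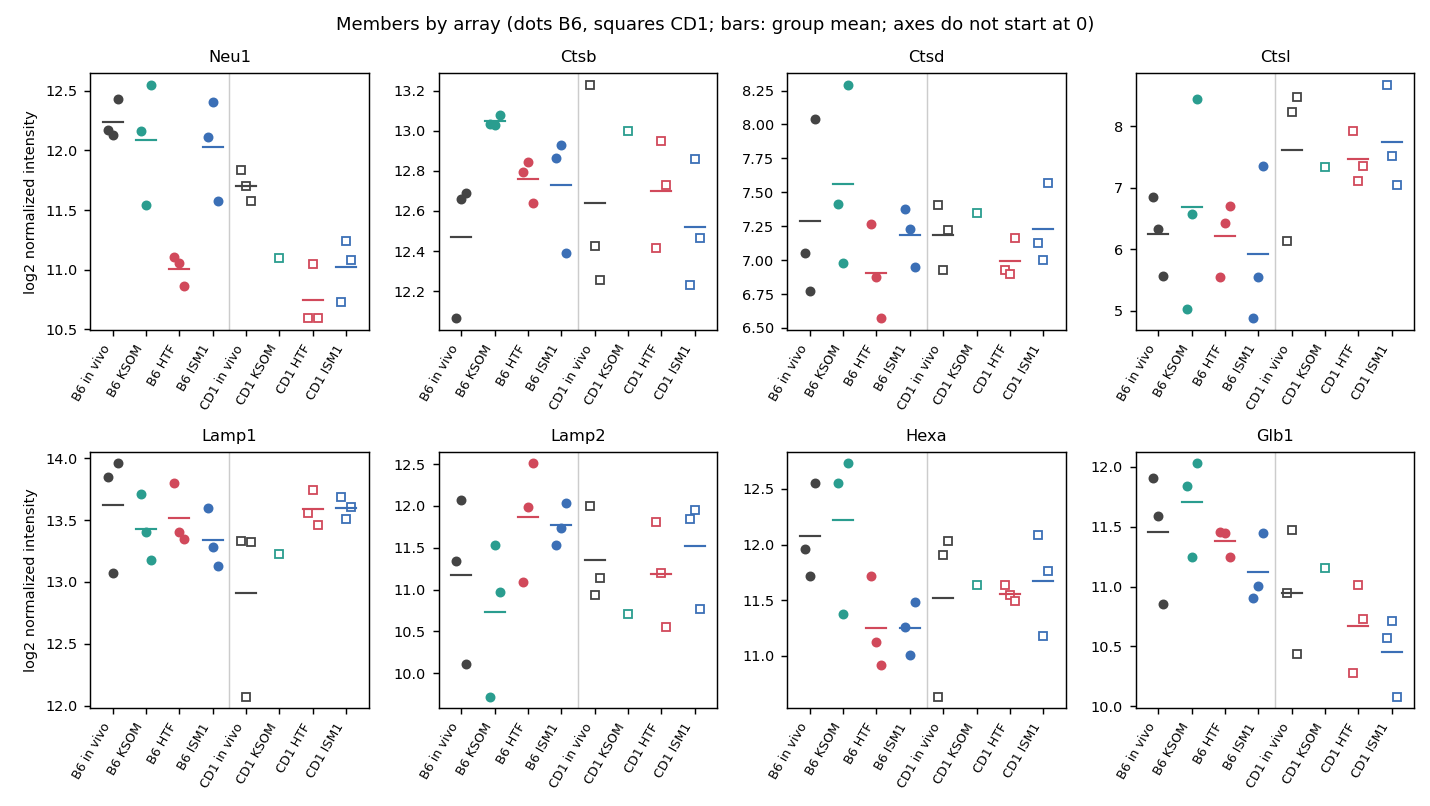
Log2 normalized intensity of the 8 measured genes (vertical axes, each with its own range) on each of 22 arrays in 8 groups (horizontal axis). Dots are B6 arrays and squares CD1 arrays, and bars are the means of the groups of 3. Neu1, chosen for being lower in HTF on these arrays, is the one panel in which all HTF arrays lie below all in vivo arrays in both strains.

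Array brightness and the levels of cell type markers were set beside the Neu1 difference. With the log2 median intensity of each array as a covariate the difference was -0.998 over both strains, and without the 3 dimmest arrays, a choice made after the data were seen, -1.06. In CD1 alone the covariate moved it from -0.96 to -0.73, the value nearest 0 under the 33 settings tried. The strain difference in the HTF effect on Neu1 (CD1 minus B6) moved from 0.27 to 0.53 with it. The mean level of the 8 trophectoderm genes ran from 11.17 to 11.30 on the B6 HTF arrays and from 10.05 to 12.20 on the B6 in vivo arrays. In CD1 it ran from 10.36 to 11.19 in HTF and from 10.09 to 11.41 in vivo. The trophectoderm level overlapped between HTF and in vivo in both strains. This mean joins genes that moved both ways: in each strain 5 of the 8 were higher and 3 lower in HTF. The mean of the 6 inner cell mass genes ran from 9.50 to 9.84 in B6 HTF and from 9.40 to 9.91 in B6 in vivo, and in CD1 from 9.39 to 9.56 and from 8.51 to 9.59. The 6 primitive endoderm genes and the 4 genes of the tract list, Krt7 and Foxj1 among them, overlapped between HTF and in vivo in both strains too. Of the blood markers, the hemoglobin gene Hba-a1 was detected on 3 arrays and ran from 5.22 to 7.24 on the B6 in vivo arrays, above the B6 HTF arrays (4.56 to 4.74), and its part in the results was not tested. Whether brightness or the make-up of cell types had a part in the Neu1 difference was not tested either.

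None of the 7 other measured members was called in HTF. Averaged over the strains, 4 of the 7 were lower and 3 higher than in vivo, and limma called 0 of 7 at an adjusted p under 0.05, where 0.203% of all 9345 genes were called and 8.25% had an unadjusted p under 0.05. The smallest unadjusted p of the 7 was 0.188 by limma, for Hexa. The 7 ran from -0.39 for Hexa to 0.28 for Lamp1, with Ctsl in the middle at -0.08, against a median of 0.01 for all genes. The low share of called genes over the whole array, and a median SE of 0.30 for this difference, bound what could be seen. None of the 7 lay lower on all HTF than on all in vivo arrays in both strains, a pattern shown by 0.717% of all genes. Neu1 did, but it was chosen for being lower in HTF on these arrays, so its pattern is no test. The single-strain comparisons of HTF with in vivo called 0.0107% of genes each and 0 of the 7.

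Ctsa and Glb1 stand closest to Neu1 in function, since cathepsin A, a carboxypeptidase, holds the sialidase and the beta-galactosidase Glb1 in one complex and protects them from proteolysis. Ctsa could not be followed. Its 4 probes had log2 values between 4.5 and 5.62 and raw intensities between 81.3 and 159, not above background on nearly all arrays. No level or difference is given for it. Glb1, which removes terminal galactose from gangliosides and keratan sulfate, was detected on all 22 arrays. It read 11.91, 11.59 and 10.86 on the B6 in vivo arrays and 11.45, 11.45 and 11.25 on the B6 HTF arrays, inside the in vivo range. In CD1 it read 10.94, 11.47 and 10.43 in vivo and 10.28, 11.01 and 10.72 in HTF, which overlapped. The HTF difference of Glb1 was -0.17 (95% interval -0.67 to 0.32, adjusted p = 0.925 by limma).

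In the order of its group means, the highest 3 were B6 groups (KSOM, in vivo and HTF) and the lowest 3 CD1 groups (in vivo, HTF and ISM1). ISM1 gave -0.41 over both strains (SE 0.24, adjusted p = 0.998 by limma) with 10.91, 11.01 and 11.45 in B6 and 10.57, 10.71 and 10.08 in CD1. KSOM in B6 read 11.84, 11.25 and 12.03, overlapping in vivo, with a difference of 0.25 (adjusted p = 0.971 by limma). With array quality weights the B6 difference in ISM1 was -0.79 (adjusted p = 0.0143 by limma) and passed, in a setting that called 14.2% of all genes there.

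Hexa encodes the alpha subunit of beta-hexosaminidase A, the enzyme that degrades GM2 ganglioside. In B6 it read 11.96, 11.72 and 12.55 in vivo and 12.56, 11.38 and 12.73 in KSOM. It read 11.72, 11.13 and 10.91 in HTF and 11.26, 11.005 and 11.49 in ISM1. The B6 in vivo arrays were all above the HTF and ISM1 arrays, although the highest HTF array came within 0.01 of the lowest in vivo array. In CD1 the HTF arrays, at 11.63, 11.55 and 11.49, lay inside the range of the in vivo arrays, at 10.63, 11.91 and 12.03. The ISM1 arrays of CD1 read 12.09, 11.17 and 11.76.

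The Hexa difference in HTF was -0.82 in B6 (SE 0.41, adjusted p = 0.999 by limma) and 0.03 in CD1 (SE 0.41, adjusted p = 1.000 by limma), and averaged -0.39 (95% interval -1.0 to 0.21). The ISM1 difference was -0.82 in B6 and 0.15 in CD1. B6 groups without overlap and with HTF lower occurred for 5.22% of all genes, and for ISM1 for 3.73%, and of the 7 other members Hexa was the one that showed each. With array quality weights Hexa passed in B6 HTF (-0.80, adjusted p = 0.0215 by limma) and in B6 ISM1 (-0.85, adjusted p = 0.0188 by limma), a setting under which 12.4% and 14.2% of all genes were called in those comparisons. The strain difference in the HTF effect was 0.86 (SE 0.58, adjusted p = 1.000 by limma) and was not called, in a comparison that called 0% of all genes. The unadjusted p was under 0.05 for 186 genes (1.99%) there.

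The cathepsins cut proteins in the lysosome: Ctsb and Ctsl are cysteine proteases and Ctsd is an aspartic protease. Ctsb read 13.04, 13.03 and 13.08 on the B6 KSOM arrays. The B6 in vivo arrays read 12.06, 12.66 and 12.69, all lower. KSOM against in vivo in B6 gave 0.58 (SE 0.29, adjusted p = 0.834 by limma), in a comparison that called 0% of all genes, with 553 (5.92%) at an unadjusted p under 0.05. Groups without overlap and with KSOM higher occurred for 4.78% of genes. The CD1 KSOM array read 12.999. The B6 HTF arrays, at 12.79, 12.85 and 12.64, lay below B6 KSOM without overlap and overlapped in vivo. In CD1, the HTF arrays read 12.42, 12.95 and 12.73 and the in vivo arrays 13.23, 12.43 and 12.26. The Ctsb difference in HTF was 0.17 (95% interval -0.25 to 0.60, adjusted p = 0.903 by limma). With array quality weights Ctsb passed in B6 in each medium against in vivo, at 0.87 in KSOM (adjusted p = 0.0429), 0.63 in HTF (adjusted p = 0.021) and 0.70 in ISM1 (adjusted p = 0.0158), all by limma, where that setting called 4.53%, 12.4% and 14.2% of all genes.

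Ctsd lay low on the scale of its probe, with raw intensities between 135 and 378, while being detected on all 22 arrays. Its group means ran from 6.91 in B6 HTF to 7.56 in B6 KSOM, with a median SD within groups of 0.30. The HTF arrays read 7.27, 6.88 and 6.57 in B6 and 6.93, 6.90 and 7.16 in CD1, and the in vivo arrays 7.05, 6.77 and 8.04 in B6 and 7.41, 6.93 and 7.22 in CD1. Both strains overlapped. The HTF difference was -0.29 (SE 0.25, adjusted p = 0.865 by limma), and it was -0.10 without B6 in vivo replicate 3, the array at 8.04.

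Ctsl was the member most uneven among replicates, with a median SD within groups of 0.84. In B6 it ran from 5.02 to 8.45 over the KSOM arrays and from 4.87 to 7.36 over the ISM1 arrays, and it was not above background on 1 array of each. In CD1 it was detected on all arrays and ran from 6.14 to 8.47 in vivo, from 7.11 to 7.93 in HTF and from 7.04 to 8.68 in ISM1. The HTF difference was -0.08 with a 95% interval from -1.27 to 1.10. Its sign changed with 1 array left out: it was 0.13 without CD1 in vivo replicate 3 and -0.45 without CD1 in vivo replicate 1.

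Lamp1 and Lamp2 are the main glycoproteins of the lysosomal membrane. Lamp1 in B6 read 13.85, 13.07 and 13.96 in vivo, 13.80, 13.40 and 13.35 in HTF, 13.59, 13.29 and 13.13 in ISM1 and 13.71, 13.40 and 13.18 in KSOM, with overlap throughout. In CD1 it read 13.33, 12.07 and 13.32 in vivo, 13.56, 13.75 and 13.46 in HTF and 13.68, 13.51 and 13.61 in ISM1. All HTF and all ISM1 arrays of CD1 lay above all in vivo arrays, as for 6.06% and 2.66% of all genes. The difference in CD1 was 0.68 for HTF (SE 0.32, adjusted p = 0.705 by limma) and 0.69 for ISM1 (SE 0.32, adjusted p = 0.980 by limma), and neither passed. Both rest largely on CD1 in vivo replicate 2, at 12.07: without it they were 0.26 and 0.27. The 2 differences share the in vivo arrays. Averaged over the strains, Lamp1 in HTF differed by 0.28 (SE 0.23, adjusted p = 0.839 by limma), and by 0.08 without that array.

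Lamp2, whose splice forms differ in the part that spans the membrane and faces the cytosol, had 4 passing probes, 2 for each of 2 RefSeq transcripts, called i and ii here. For transcript i, probe ILMN_1217454 read 11.35, 12.07 and 10.11 in B6 in vivo and 11.10, 11.99 and 12.51 in B6 HTF. It read 9.72, 11.53 and 10.97 in B6 KSOM. For transcript ii, probe ILMN_3074259 read 9.66, 8.55 and 9.49 in B6 in vivo, 9.59, 9.71 and 9.73 in B6 HTF and 8.68, 9.13 and 7.57 in B6 KSOM. KSOM held the lowest group mean of each of the 4 probes, in CD1 or in B6, and the transcript ii probes alone separated B6 HTF from B6 KSOM without overlap, with HTF higher as for 6.28% of all genes.

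HTF against KSOM in B6 gave 1.13 and 1.10 for the transcript i probes and 1.22 and 1.28 for the transcript ii probes in the fit over all passing probes (adjusted p from 0.522 to 0.567 by limma), so none passed. With 1 probe per gene, the Lamp2 value was 1.13 (SE 0.55, adjusted p = 0.526 by limma), and 0.62 without B6 KSOM replicate 1. Against in vivo, averaged over the strains, the 4 probes read 0.26, 0.21, 0.42 and 0.50 in HTF, all higher and none called. Without B6 in vivo replicate 3 the first of them was -0.0077, in the fit with 1 probe per gene. In CD1 the transcript i probes gave -0.17 and -0.34 and the transcript ii probes 0.40 and 0.60. This difference between transcripts was not tested. Over the 22 arrays, probes of one transcript correlated at r = 0.973 and r = 0.904, and probes of different transcripts at r between 0.125 and 0.286. These correlations share the arrays and the probes' common gene, and are descriptions.

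**Figure D2:**
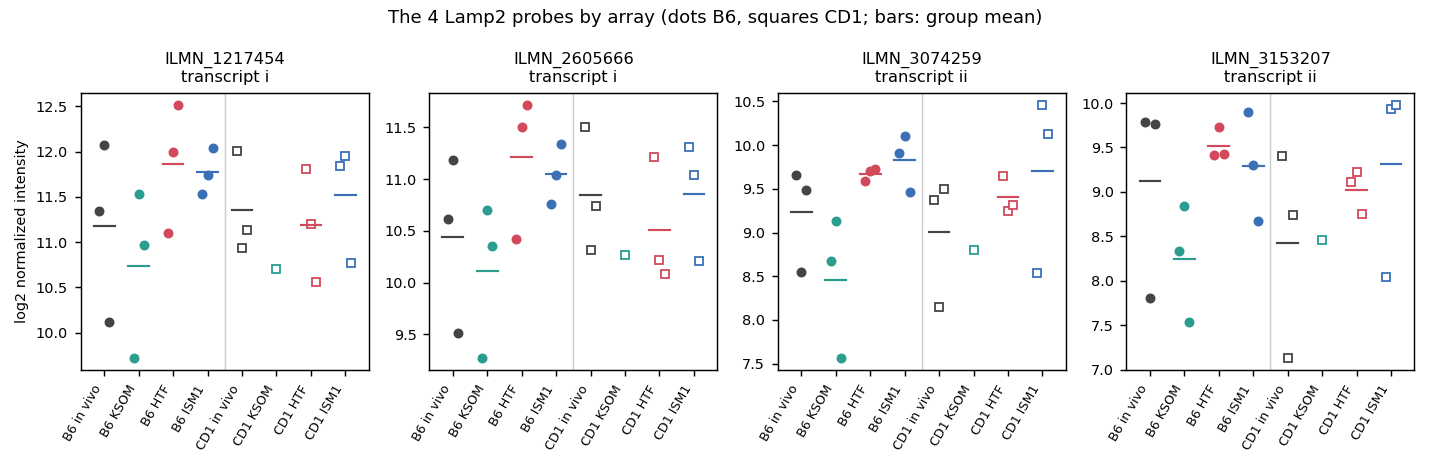
Log2 normalized intensity (vertical axes, each with its own range) of the 4 Lamp2 probes on each array by group (horizontal axis). Dots are B6, squares CD1, and bars the means of the groups of 3. The transcript i pair and the transcript ii pair each repeat one pattern over the arrays (r = 0.973 and r = 0.904), and the patterns of the pairs differ.

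HTF was also set against the other media. Against ISM1, over both strains, Neu1 differed by -0.65, as a description, and the other 7 ranged from -0.26 for Ctsd to 0.24 for Glb1. None of the 7 was called, where 0.0963% of genes were. Against KSOM in B6, where 0.0107% of genes were called, Neu1 differed by -1.07, Hexa by -0.97 (SE 0.41, adjusted p = 0.487 by limma) and Ctsd by -0.65 (SE 0.35, adjusted p = 0.560 by limma). Neu1 and Ctsb were lower without overlap, which held for 8.74% of all genes. These comparisons share the HTF arrays with those against in vivo. In ISM1 and KSOM against in vivo, 0 of the 7 members other than Neu1 were called, beside 0% of all genes, with 307 genes (3.29%) at an unadjusted p under 0.05 for ISM1 over both strains.

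**Figure D3:**
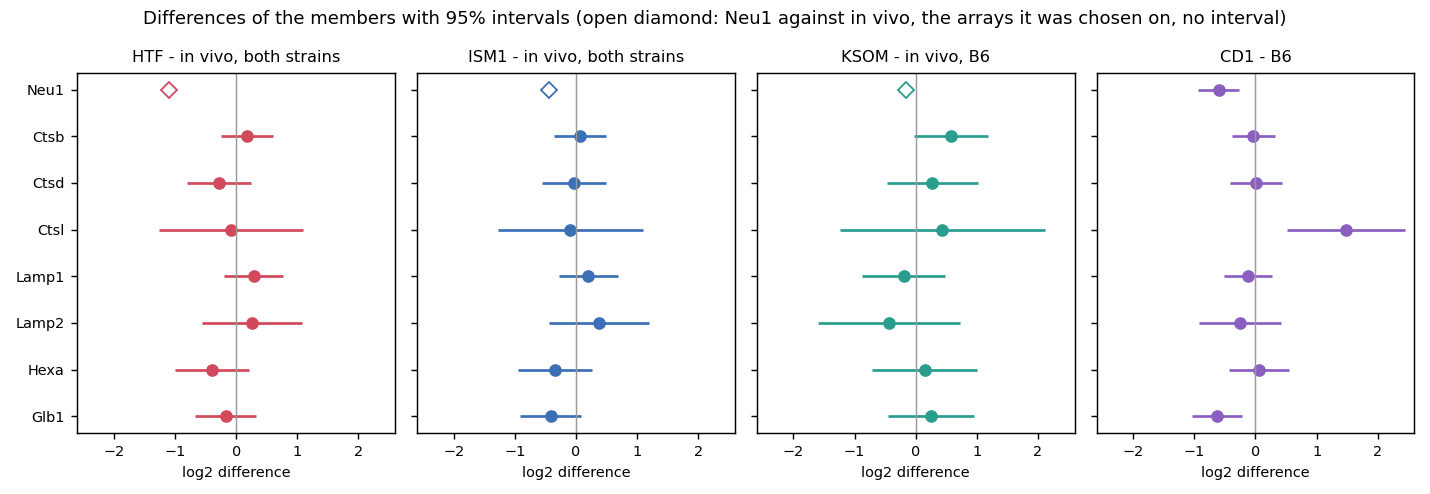
Log2 differences (horizontal axes) of the 8 measured genes (vertical axis) in 4 comparisons, with 95% intervals from the limma fit over 22 arrays. Open diamonds are Neu1 against the in vivo arrays it was chosen on, at -1.09 in HTF, drawn with no interval. Every HTF interval of the other genes includes 0, and in the strain comparison the intervals of Neu1, Glb1 and Ctsl do not, before adjustment over 9345 genes. The strain interval of Neu1 uses the HTF and in vivo arrays on which Neu1 was chosen.

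No member passed adjustment between the strains, and 3 had an unadjusted p under 0.05. CD1 against B6, averaged over HTF, ISM1 and in vivo, gave -0.60 for Neu1 (SE 0.16, unadjusted p = 0.0016 and adjusted p = 0.160 by limma), -0.63 for Glb1 (SE 0.19, adjusted p = 0.234 by limma) and 1.48 for Ctsl (SE 0.46, adjusted p = 0.239 by limma). The other 5 lay between -0.25 and 0.06. This comparison called 0.235% of all genes and 0 of 8 members. An unadjusted p under 0.05 was found for 10.1% of all genes. The Neu1 value uses the HTF and in vivo arrays on which Neu1 was chosen, so its SE and p-values are not free of that choice. Neu1 was lower in CD1 without overlap in ISM1 and in vivo, and Glb1 in HTF and ISM1. Lamp2 probe ILMN_3153207 was lower in CD1 without overlap in HTF alone, and the other Lamp2 probes overlapped between the strains. CD1 lower without overlap held for 5.41% of all genes in HTF, 4.24% in ISM1 and 5.23% in vivo. Ctsl was higher in CD1 without overlap in HTF, a pattern of 8.15% of genes, and overlapped between the strains in ISM1 and in vivo.

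The median raw intensity averaged 104 to 126 in the CD1 groups and 136 to 144 in the B6 groups, so the strain differences are given with brightness as a covariate as well. They were then -0.83 for Neu1, -0.47 for Glb1 and 1.30 for Ctsl, and none passed (adjusted p from 0.150 to 0.402 by limma). Without the 3 dimmest arrays Ctsl was 1.84 (adjusted p = 0.0346 by limma) and passed, as did 1.09% of all genes. With array quality weights the 3 genes passed, at adjusted p = 0.0255 for Neu1 and 0.0259 for Glb1 by limma, as did 1.47% of all genes. Here too the Neu1 values use the arrays on which Neu1 was chosen. Across arrays, the log2 median intensity correlated with Neu1 at r = 0.113, with Glb1 at r = 0.435 and with Ctsl at r = -0.469 (22 arrays, as a description). Whether brightness accounts for any part of the strain values was not tested.

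Over the group means of the 8 genes, neighbours in the order differed by less than the median SD within groups, except for 3 neighbouring pairs of Neu1 and for Lamp1 between CD1 KSOM and CD1 in vivo. The highest and lowest group means were furthest apart for Ctsl (1.82, median SD 0.84), Neu1 (1.49), Glb1 (1.25, median SD 0.37) and Lamp2 (1.16, median SD 0.66), and nearest for Ctsb (0.58, median SD 0.29).

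Other lysosomal genes were set beside the members. In 7 lists of glycosidases and sulfatases, lipid enzymes, further proteases, membrane proteins, proton pump subunits, sorting proteins and regulators, 72 of 93 genes were tested. In HTF over both strains, 35 were lower and 37 higher, with a median of 0.03 against 0.01 for all genes, and 0 of 72 were called. An unadjusted p under 0.05 was reached by 2 of the 72, beside 8.25% of all genes. By list, the median ran from -0.09 for the 14 glycosidases and sulfatases, 9 of them lower, to 0.17 for the 11 further membrane proteins, 8 of them higher. In ISM1, 28 were lower and 44 higher, with a median of 0.10. In KSOM, compared in B6 alone, 35 were lower and 37 higher, and 5 of the 72 had an unadjusted p under 0.05, beside 5.92% of all genes. CD1 against B6 gave 43 lower and 29 higher, with a median of -0.08. There 10 of the 72 had an unadjusted p under 0.05, beside 10.1% of all genes. No list gene was called in any of the 11 comparisons.

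**Figure D4:**
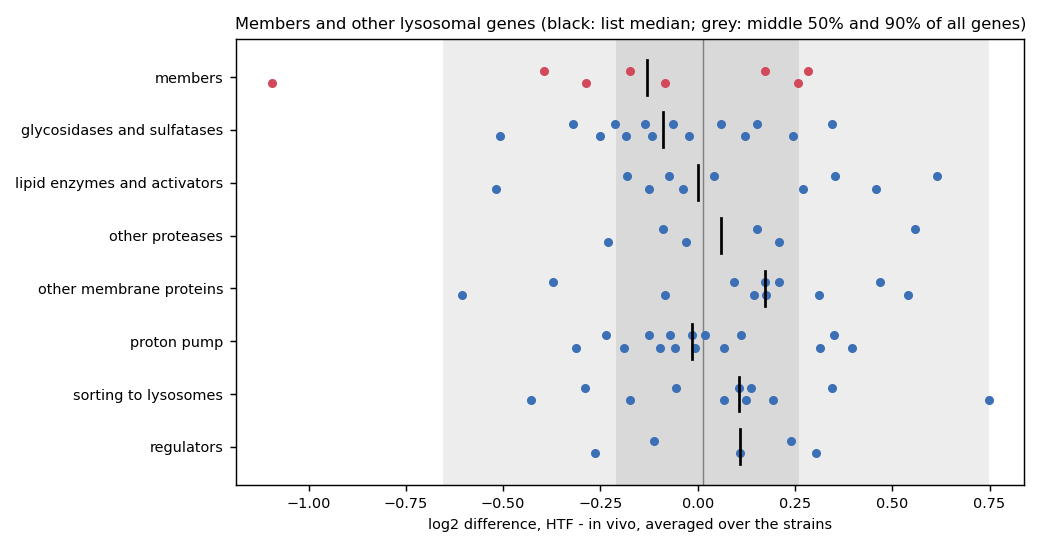
Log2 differences between HTF and in vivo, averaged over the strains (horizontal axis), of the 8 members (red) and of the genes in 7 further lysosomal lists (blue), by list (vertical axis). Black bars are list medians, that of the members with Neu1 included, and the grey bands hold the middle 50% and 90% of all 9345 genes. Neu1, at -1.09 and chosen for being lower in HTF on these arrays, is the one point left of the outer band.

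Single genes fixed by name from the lists were read in HTF over both strains. Psap, the precursor of the saposins that present glycolipids to enzymes such as Glb1, differed by 0.04 (SE 0.15, adjusted p = 0.974 by limma), with group means between 14.67 and 14.90. Gaa, which degrades glycogen, differed by 0.25, and Gusb, beta-glucuronidase, by 0.15. Of the further proteases, the cathepsins Ctsc and Ctsz differed by 0.21 and -0.03, and the asparaginyl endopeptidase Lgmn by -0.23. The membrane proteins Scarb2, which carries glucocerebrosidase to the lysosome, and Cd63 differed by 0.17 and 0.31. Cd63 was -0.15 in B6 and 0.78 in CD1, where the in vivo arrays ran from 9.34 to 13.75, and the average turned to -0.42 without CD1 in vivo replicate 2. Without the same array Scarb2 turned to -0.034, and Ctsz ran from -0.48 to 0.59 as single arrays were left out. None of these genes was called.

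Of the named genes that fill, acidify or regulate lysosomes, none was called. Igf2r and M6pr, the mannose 6-phosphate receptors, differed by -0.06 (SE 0.34) and 0.19 (SE 0.21). For Igf2r the average joins 0.44 in B6 and -0.55 in CD1, and its sign changed in 2 of the 21 fits with 1 array left out. Atp6v1a, the catalytic subunit of the proton pump, differed by 0.40 with an SE of 0.55, from 1.22 in B6 and -0.42 in CD1. The strain difference in the HTF effect was called by limma for none of the 72 list genes. Tfe3, a transcription factor of lysosomal genes, differed by 0.30 (SE 0.31, adjusted p = 0.895 by limma), with -0.03 in B6 and 0.64 in CD1, where it was above background on 1 of 3 in vivo arrays. Its relative Tfeb had 2 probes that were detected on at most 1 array, so no difference is given for it.

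The genes most like Neu1 over the 22 arrays lay outside the lysosomal lists. The 5 highest Pearson correlations were with Kcnk5 (r = 0.808), P4ha2 (r = 0.80), Tex264 (r = 0.797), Itpkc (r = 0.789) and Bok (r = 0.786). Their Spearman rho was 0.802, 0.757, 0.782, 0.791 and 0.747 in the same order. Without the 2 arrays farthest from the Neu1 median, r was between 0.754 and 0.781. Kcnk5 encodes a potassium channel, P4ha2 a prolyl hydroxylase of collagen, Tex264 an endoplasmic reticulum protein that acts as a receptor in autophagy, Itpkc an inositol trisphosphate kinase and Bok a relative of Bax. All 5 had negative differences in HTF, of -0.69, -0.92, -0.74, -0.99 and -0.74, and in CD1 against B6, of -0.41, -0.52, -0.59, -0.50 and -0.46. They were picked as the highest of 9345 genes, so the values describe and do not test. Among the members, r with Neu1 was 0.516 for Glb1, 0.510 for Ctsd, 0.330 for Hexa and 0.218 for Ctsb. It was -0.09 for Lamp1, -0.23 for Lamp2 and -0.40 for Ctsl. Without the 2 arrays farthest from the Neu1 median, r was 0.410 for Glb1, 0.416 for Ctsd, 0.195 for Hexa and 0.154 for Ctsb. For Lamp1, Lamp2 and Ctsl it was then -0.04, -0.32 and -0.58.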

How the data were processed

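Total RNA of 22 blastocyst samples was amplified to biotin-labelled cRNA, per the labels' protocols, and read on one-colour bead arrays. The deposited table gives for 25697 probes a linear intensity and a detection p-value, and the authors also deposited log2 values, quantile-normalized, used as an alternative. The submitters' processing notes name BeadStudio 3.2, RMA and lumi without an order of steps, and slide and genome build are not given in the sources used here. The number of arrays limits the precision.

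Intensities were normalized with neqc (offset 16) of limma 3.58.1 in R 4.3.3, with detection p-values in place of control probes. The filter of a detection p under 0.05 on 3 or more arrays left 12992 probes. For each of 9345 genes the passing probe of highest mean level was fitted, and further probes come from a fit over all passing probes. Symbols are those of the annotation given for the array, with 0 updated through RefSeq. A model of 8 group means over 22 arrays (14 residual and 3.51 prior degrees of freedom) gave 11 two-sided comparisons by lmFit and eBayes, Benjamini-Hochberg adjusted over all genes and called under 0.05. The fit was tested on simulated data.

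Members and lists were chosen with earlier results of these data known. Named were all 9 members, 17 list genes fixed by name (12 tested, Tfeb not detected, 4 not analysed here) and the 5 genes most correlated with Neu1.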

Additional observations from a re-analysis of the deposited data

How the results depend on the processing

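The comparisons were repeated under 33 settings, of which 21 left out 1 array each. Neu1 in HTF over both strains stayed between -1.20 (median scaling) and -0.998 (brightness covariate). For HTF over both strains no other member and no list gene was called under any of the 33 settings. Array quality weights raised the count of members called, which leaves out Neu1 in comparisons of media, from 0 to 2 (HTF, B6), 3 (ISM1, B6), 1 (KSOM, B6) and 3 (CD1 against B6), and that of list genes from 0 to 6, 10, 1 and 2 there and to 3 for HTF against ISM1. The cause was not tested. The 3 in CD1 against B6 include Neu1, chosen on part of those arrays. Without the 3 dimmest arrays, a setting chosen after seeing the data, CD1 against B6 gave 1 member and 2 list genes. With single arrays left out, list genes ranged from 0 to 1 for HTF against ISM1 (1 without CD1 ISM1 replicate 1) and from 0 to 1 for CD1 against B6 (1 without CD1 in vivo replicate 1). Of 2904 member values, 143 changed sign, 0 of them with a call, and 3 of these also moved by at least 1 replicate SD: Ctsb in CD1 ISM1 to 0.20 without the 3 dimmest arrays, Ctsl in B6 KSOM to -0.83 and Glb1 in the strain difference of the HTF effect to 0.33 with array quality weights. Median scaling moved the median of all genes to -0.12 for HTF over both strains, -0.25 in CD1 and 0.19 for CD1 against B6; relative to it, Neu1 in HTF was -1.08. Genes called over the whole array ranged from 5 to 165 for HTF over both strains (19 as reported), from 0 to 1159 for HTF in B6 (1), from 0 to 29 for HTF in CD1 (1), from 4 to 315 for HTF against ISM1 (9), from 0 to 221 for HTF against KSOM (1) and from 3 to 137 for CD1 against B6 (22). With ISM1 they ranged from 0 to 1 over both strains, 0 to 1329 in B6 and 0 to 5 in CD1, and with KSOM from 0 to 423 (each 0 as reported). Same-numbered replicates correlated at r from -0.72 to 0.45 over 27 pairs, 11 of them over 0.1, and 1 pair of groups, CD1 HTF and CD1 ISM1, had all 3 over 0.1 (0.177 to 0.213), so numbers were not used as pairs; with the replicate number as a block, 0 members and 0 list genes were called in each of the 11 comparisons, with 7 genes called for HTF over both strains and 5 for HTF against ISM1. A block for the slide was not run, since no header gives it.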

Other observations

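Of the 72 further lysosomal genes tested, the one with the smallest adjusted p in HTF over both strains was Ctns, the cystine exporter of the lysosome, 0.47 higher on the log2 scale (SE 0.20, adjusted p = 0.541 by limma). Acp2, lysosomal acid phosphatase, had the smallest in HTF against ISM1 (1.202 higher in HTF, SE 0.27, adjusted p = 0.189 by limma), and it was also 1.09 higher in B6 KSOM than in vivo (SE 0.39, adjusted p = 0.654 by limma). In ISM1 against in vivo Acp2 differed by -0.85 averaged over the strains (SE 0.27, adjusted p = 0.998 by limma). In CD1 alone that difference was -1.40 (SE 0.39, adjusted p = 0.807 by limma), so the strains contributed unequally. Tpp1, a lysosomal tripeptidyl peptidase, had the smallest in CD1 against B6 (0.88 higher in CD1, SE 0.22, adjusted p = 0.111 by limma). All 3 were picked from the lists with their values in view, and none was called.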
